A study of Mus musculus with 80 samples.

Results

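Of 72 cells collected as GFP-positive from the substantia nigra pars reticulata (SNr), 5 held no or almost no transcripts of Gad1, the gene of the GABA-synthesizing enzyme whose reporter had been used to pick them. These 5 cells, and 5 further GFP-positive cells in which Gad1 was present but few genes were detected, are described here one by one. The first 5 were chosen by a Gad1 level of 10 TPM or less, where TPM is the share of a gene in the length-corrected transcripts of a cell, scaled to a total of 1000000. The other 5 were chosen by a Gad1 level above 10 TPM together with 5000 or fewer genes above 1 TPM. The members are thus 10 of the 80 cells of the series, and the 62 remaining GFP-positive cells serve as the reference. Gad1 and the number of detected genes made the choice, so their values, and every comparison between these sets of cells, are a description with no test.

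The cells came from GAD1-EGFP transgenic mice of strain C57Bl/6, in which GABAergic neurons carry green fluorescent protein, at postnatal day 14, 15, 16 or 20. The nigral tissue was dissociated, single cells were aspirated by hand under fluorescence, and polyadenylated RNA of each cell was sequenced with Smart-seq2, a method that reads along full-length cDNA. A further 8 cells were collected as GFP-negative and appear here for comparison only. The sample labels call every GFP-positive cell a GABAergic SNr neuron but give no animal. A condition therefore counts as 1 sample, the value of a cell has no replicate, and no p-value was computed. Cells are named by the number in their sample title. The Gad1-lacking cells are cells 56 and 57 from day 15, 18 and 84 from day 16, and 38 from day 20. The low-gene cells with Gad1 are cell 63 from day 15, cells 83, 90 and 96 from day 16, and cell 26 from day 20.

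GABAergic neurons of the SNr fire without pause and hold their targets under inhibition. They lie among astrocytes, which take up transmitter and potassium, among oligodendrocytes, which wrap axons in myelin, and among oligodendrocyte precursors, which go on dividing in the young brain. The RNAs of some glial and neuronal genes are carried far from the nucleus into cell processes, the best known being Mbp RNA, which is made into protein within myelin itself, while other RNAs such as Malat1 stay in the nucleus.

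Gad1 (ENSMUSG00000070880, chromosome 2 from 70553072 to 70602014, plus strand, GRCm38) was listed at 0 in cells 18, 38 and 56. It stood at 1.59 TPM in cell 57 and at 2.66 TPM in cell 84. Just outside the limit of 10 were cell 26 with 31.5 TPM and reference cell 10 with 34.2 TPM, and the reference as a whole ran from 34.2 to 1987 TPM with a median of 909. The gap between members and the next cell was thus over 10-fold wide on the TPM scale. In cell 26 the low value went with a single short RNA: AF357359, a small noncoding RNA gene, held 96.6% of its TPM, and Gad1 stood at 920 TPM once short noncoding RNA genes were left out of the total. The Gad1-lacking cells made up 0 of 9 GFP-positive cells at day 14, 2 of 23 at day 15, 2 of 29 at day 16 and 1 of 11 at day 20. Over all ages this was 6.94% (5 of 72, exact 95% interval 2.29 to 15.5, counting error only), and the 0 of 9 cells at day 14 allow a share of up to 33.3%.

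Gad2 and Slc32a1, other genes of GABA neurons, were also near 0 in the 5 cells. Gad2, which encodes a second GABA-synthesizing enzyme, reached at most 5.91 TPM in them, against 19.2 to 1148 in the reference. Slc32a1, the vesicular GABA transporter, was detected in cell 56 alone at 4.04 TPM, but 3 reference cells lacked it too. The mean of log2(TPM + 1) over the list of 4 GABAergic genes was 0 to 2.09 in the Gad1-lacking cells and 4.85 to 8.77 in the reference, so the cells did not overlap. Gad1 itself is a member of this list.

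**Figure D1:**
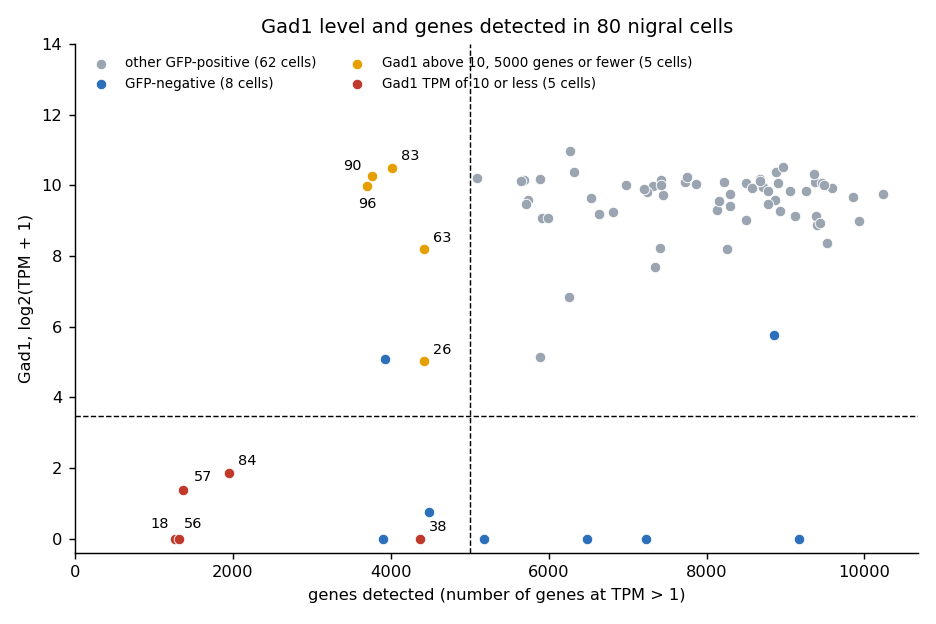
Gad1 as log2(TPM + 1) on the vertical axis against the number of genes above 1 TPM on the horizontal axis, 1 point for each of the 80 cells, coloured by set and with the 10 members numbered. The dashed lines are the limits that chose the members, 10 TPM and 5000 genes. Cells 18, 56, 57 and 84 lie far left of all other cells, and cell 38 lies among the low-gene cells in genes detected but at 0 in Gad1.

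Of the 5 cells, 4 held very few genes. Cell 18 had 1271 genes above 1 TPM, cell 56 had 1310, cell 57 had 1372 and cell 84 had 1950, while cell 38 had 4364. The reference, whose lower edge is set by the rule, ran from 5094 to 10236 genes with a median of 8238. The GFP-negative cells had 3897 to 9173 genes, so cells 18, 56, 57 and 84 held fewer genes than any other cell of the series. The low-gene cells had 4421 (cell 26), 4426 (63), 4018 (83), 3763 (90) and 3699 genes (96), a range that the rule caps and that holds cell 38, with cell 63 just inside the limit and reference cell 35 at 5094 just outside it. With short noncoding RNA genes left out of the total, cell 26 had 7276 genes and cell 63, where Rnu6 held 79.6% of TPM, had 5005, so that only cells 83, 90 and 96 remained under 5000.

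The table holds no read counts. Depth was estimated from the spacing of low FPKM values, read as whole multiples of the value of 1 fragment. Of the low values used, 56.9 to 70.9% lay within 0.05 of a whole number in the Gad1-lacking cells. In the reference it was 59.8 to 77.6%. The estimate was 127999 fragments in cell 18, 390732 in cell 38, 207447 in cell 56, 222489 in cell 57 and 206443 in cell 84. An estimate of this kind can miss by a whole factor, since a small multiple of the true number also fits. The reference ran from 150810 to 6198260 fragments with a median of 1784780. By this estimate the Gad1-lacking cells were shallow. Shallow reference cells existed as well: cells 28, 29, 31 and 46 had 150810 to 383762 fragments, and they held 6317 to 8574 genes. Gad1 stood at 517 to 1322 TPM and Snap25 at 3340 to 4674 TPM in these 4 cells. The rule keeps cells without Gad1 or with few genes out of the reference, so these values were set by the choice of cells. The other GFP-positive cells of 390732 fragments or fewer were the Gad1-lacking cells themselves and low-gene cell 26 with 137006, and the part of depth in the low gene numbers was not tested. In the 5 cells, 1 fragment of a 2 kb transcript was worth 1.98 to 7.10 TPM, so the Gad1 values of cells 57 and 84 are those of about 1 fragment or less of such a transcript.

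Genes that every reference cell expressed were missing in large numbers. Of 874 genes above 1 TPM in all 62 reference cells, called core genes here, cell 18 had 288, cell 56 had 317, cell 57 had 307, cell 84 had 467 and cell 38 had 711. The low-gene cells had 758 to 841 of them and the GFP-negative cells 592 to 872. The reference holds all 874 by construction. At 50 TPM or more, a level well above 1 fragment of a 2 kb transcript in these cells and taken with short RNAs left out, the share of core genes was 24.1 to 51.0% in the Gad1-lacking cells, 72.1 to 92.2% in the low-gene cells and 80.5 to 94.5% in the reference. Genes abundant in the reference were missing as well as rarer ones. Among the 101 genes with a reference mean of 10 or more on the log2 scale, cell 57 held 51.5%, cells 18 and 56 each 58.4%, cell 84 82.2% and cell 38 96.0%.

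**Figure D2:**
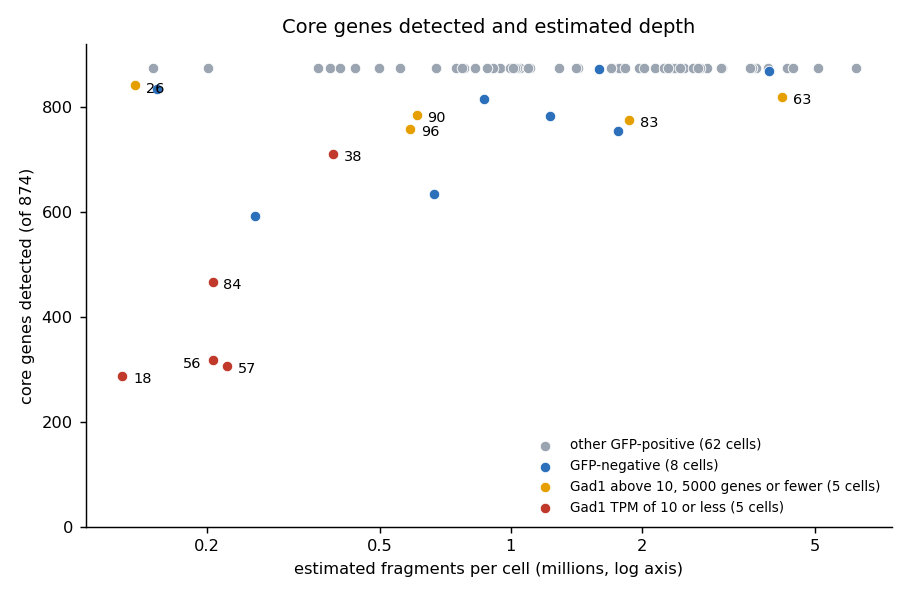
Core genes detected on the vertical axis against estimated fragments on a logarithmic horizontal axis, 1 point for each of the 80 cells. The reference sits at 874 by construction, also in its 4 cells of 150810 to 383762 fragments, while cells 18, 56, 57 and 84 sit between 288 and 467.

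**Figure D3:**
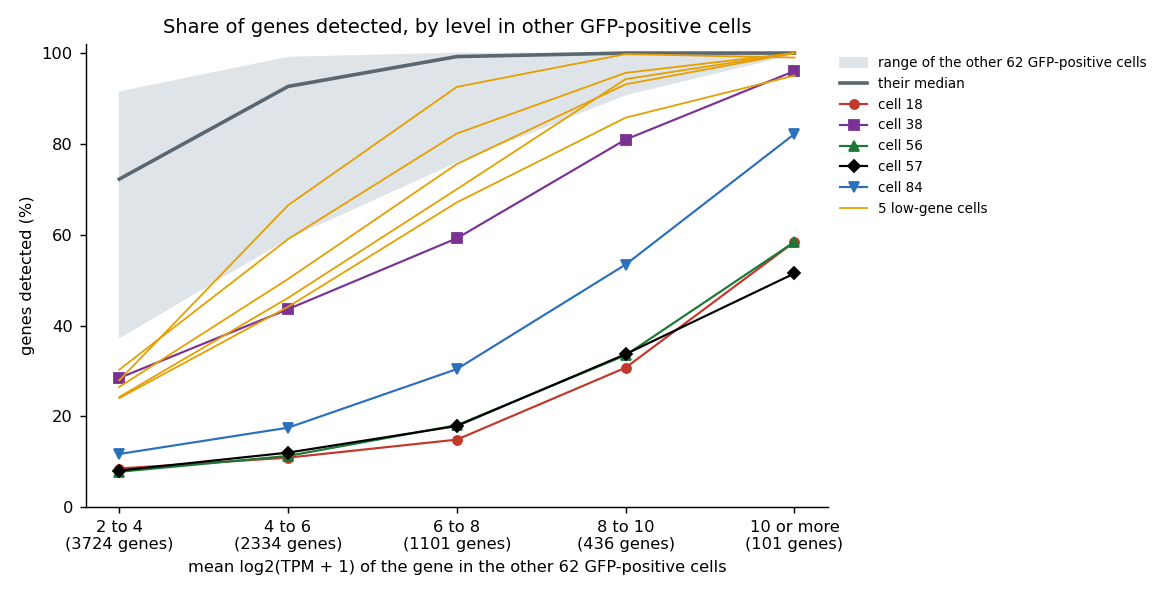
The share of genes above 1 TPM (vertical axis, percent) in 5 bins of rising mean log2(TPM + 1) in the reference (horizontal axis, number of genes in brackets). The grey band is the range and the grey line the median of the 62 reference cells, each coloured line with symbols is 1 Gad1-lacking cell and each orange line 1 low-gene cell. In the top bin the Gad1-lacking cells run from 51.5 to 96.0%.

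The missing core genes with the highest reference levels were taken for each cell. Cell 18 was listed at 0 for Sod1 (superoxide dismutase), Mdh1 (malate dehydrogenase), Cox5b (a subunit of cytochrome oxidase) and Stmn3 (a neuronal tubulin-binding protein), each at 196 TPM or more in every reference cell. Cell 56 was at 0 for Ldhb (lactate dehydrogenase), Ckb (brain creatine kinase), Cox6c and Mdh1. Cell 57 was at 0 for Hspa8, the constitutive heat shock protein, which was never below 1025 TPM in the reference, and for Calm2 (calmodulin), Usmg5 and the mitochondrial ADP/ATP carrier Slc25a4. In cell 84 the leading absences included Nap1l5, Tecr, Uqcrb and Uchl1. Cell 38, the richest of the 5, lacked the respiratory genes Ndufa6, Atp5j, Uqcr10 and Sdhb, and the proton pump gene Atp6v0c was at 0.0616 TPM. Among the first 5 missing genes, most differed from cell to cell. Mdh1 was shared by cells 18 and 56, and 2010107E04Rik was among the first 5 of cells 18, 56 and 57.

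Neuronal transcripts were scarce in cells 18, 57 and 84 and present in part in cells 38 and 56. Over a list of 12 neuronal genes, the mean of log2(TPM + 1) was 0.65 in cell 18, 4.49 in cell 38, 5.39 in cell 56, 2.24 in cell 57 and 1.96 in cell 84. The reference ran from 6.11 to 9.22 with a median of 8.56, above all 5 cells. Snap25 (ENSMUSG00000027273, chromosome 2 from 136713453 to 136782428), a protein of synaptic vesicle fusion, stood at 13.5 TPM in cell 18, 12.3 in cell 38, 17.7 in cell 57 and 25.4 in cell 84, against 477 to 9477 in the reference. Cell 56 was the exception with 3182 TPM, close to the reference median of 3773. Cell 56 also held the neurofilament gene Nefl at 1799 TPM, Stmn2 at 1171, Eno2 (the neuronal enolase) at 371, Tubb3 (neuronal tubulin) at 341 and Map2 at 193. Its Syt1, the calcium sensor of vesicle release, and Thy1, a neuronal surface protein, were listed at 0 although every reference cell had them. Map2, whose RNA is found in dendrites, was at 418 TPM in cell 38 and 129 in cell 84, and the reference median was 72.6. Elavl4 and Eno2 were the neuronal genes of cell 57, at 282 and 312 TPM.

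Astrocyte transcripts were present in all 5 cells. Gfap (ENSMUSG00000020932, chromosome 11 from 102887336 to 102900912, minus strand), the intermediate filament of astrocytes, stood at 3483 TPM in cell 18, 738 in cell 38, 11653 in cell 56, 5464 in cell 57 and 1261 in cell 84. No reference cell passed 340 TPM, and the reference median was 15.7. Gfap was the only gene of the 12 astrocyte markers whose levels in these cells and in the reference did not overlap. The list mean was 6.03 in cell 18, 4.27 in cell 38, 5.64 in cell 56, 2.89 in cell 57 and 6.49 in cell 84, against a reference median of 2.13. Reference cell 45 reached 7.80, above all 5, with Gad1 present, so a high astrocyte mean occurred also beside a full set of core genes. Which markers were present varied. Aqp4, the astrocyte water channel, was at 1277 TPM in cell 18 and 869 in cell 84, 162 in cell 38 and 0 in cells 56 and 57. Gja1, which encodes connexin 43, was at 523, 967, 875 and 1948 TPM in cells 18, 56, 57 and 84 and at 0 in cell 38. Of the glutamate transporters, Slc1a2 was at 384, 536 and 1195 TPM in cells 18, 38 and 84, and Slc1a3 was at 537 TPM in cell 56, 170 in cell 38 and 126 in cell 84.

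Myelin transcripts were the most abundant marker RNAs of the 5 cells, but only some members of the list were there. Mbp, myelin basic protein, stood at 29474 TPM in cell 18, 11985 in cell 38, 43657 in cell 56, 54037 in cell 57 and 43473 in cell 84. The reference had a median of 795 TPM and a highest value of 13459, with Mbp above 1 TPM in 61 of 62 cells, so Mbp RNA was found across the collection and 4 of the 5 cells exceeded it. Cnp, a myelin enzyme, was at 243 to 2770 TPM and Mobp, a myelin protein whose RNA also travels into processes, at 185 to 1132 TPM in all 5. Mag, Mog, Cldn11, Opalin and Aspa were at 0 throughout the 5 cells. GFP-negative cells 68 and 70, which carry the whole myelin list, had Mag at 4109 and 16087 TPM and Mog at 5998 and 10176 TPM beside Mbp at 25383 and 22368. Cells 18, 56, 57 and 84 thus exceeded both in Mbp while holding no Mag, Mog, Cldn11, Opalin or Aspa. The list mean was 3.21 to 4.52 in the 5 cells and 0.62 to 5.52 in the reference, which overlapped. Whether Mbp RNA came with the cell, with a fragment of another cell or from the medium was not tested.

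**Figure D4:**
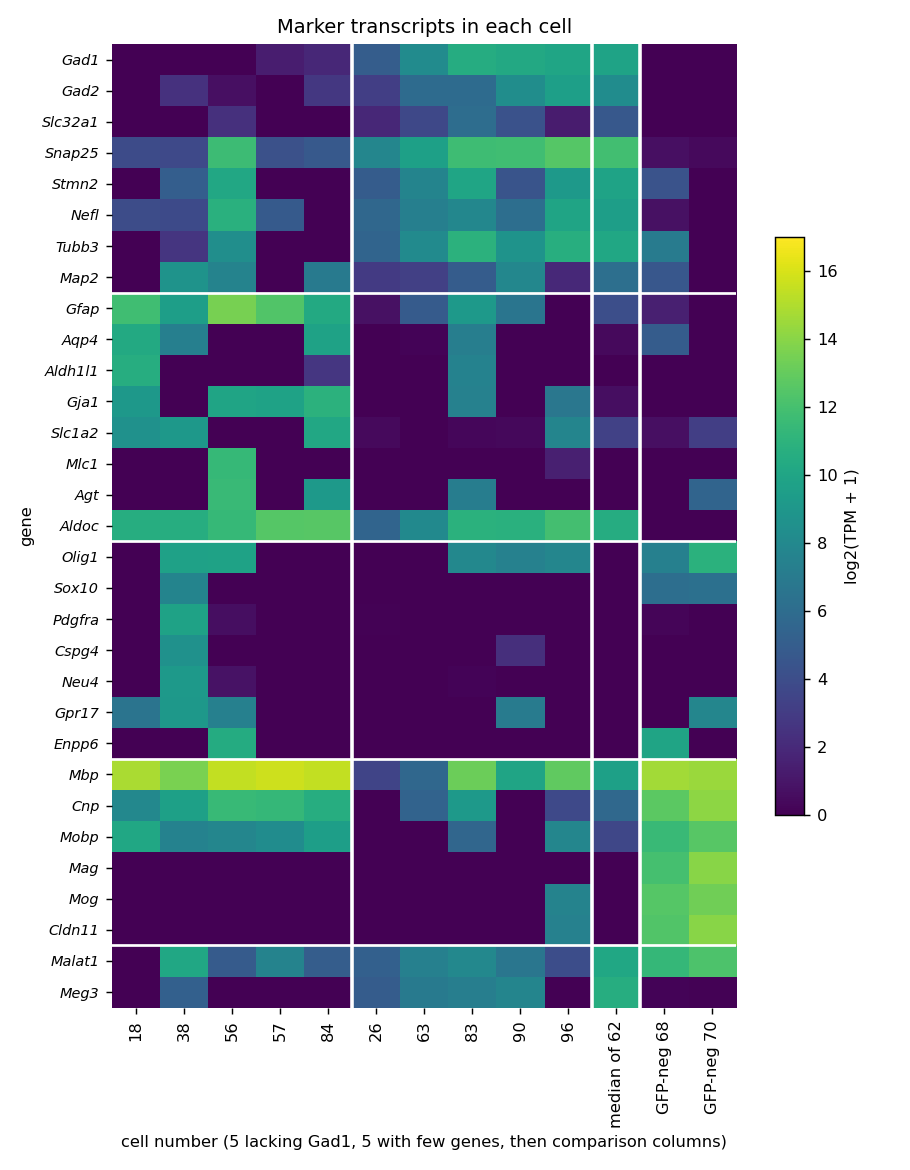
Marker transcripts as log2(TPM + 1), from dark (0) to yellow, with genes as rows and cells as columns: the 5 Gad1-lacking cells, the 5 low-gene cells, the median of the 62 reference cells, and GFP-negative cells 68 and 70. Rows run from neuronal through astrocyte, precursor and myelin genes to the nuclear RNAs Malat1 and Meg3. Mbp is bright in all 5 Gad1-lacking cells while Mag, Mog and Cldn11 stay at 0 in them.

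Oligodendrocyte precursor genes set cell 38 apart. Pdgfra (ENSMUSG00000029231, chromosome 5 from 75152292 to 75198215), the growth factor receptor that defines these precursors, was at 904 TPM in cell 38, at 0.545 in cell 56 and at 0 in the other 3, and the highest reference value was 7.30. Cspg4, the proteoglycan NG2, was at 382 TPM in cell 38 and at 0 in the other 4. Of the 10 listed genes cell 38 had 7, with Ptprz1 (a receptor phosphatase) at 788 TPM, Neu4 (a sialidase) at 582, Gpr17 (a receptor of maturing precursors) at 539, Lhfpl3 at 473 and Vcan (versican) at 468. The list mean was 6.41 in cell 38 and 0.05 to 2.45 in the reference. The transcription factor genes of the lineage followed, with Olig1 at 832 TPM and Sox10 at 206, while Olig2 was at 0. Cell 56 held Enpp6, a gene of newly forming oligodendrocytes, at 1385 TPM and Olig1 at 870, together with its neuronal and astrocyte genes.

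Immediate early and heat shock transcripts were low in most of the 5 cells. None of 14 immediate early genes, which are switched on within minutes of a stimulus, was above 1 TPM in cells 18, 56 and 57, and cell 84 had Fosb alone at 2.25 TPM. Cell 38 had 6 of the 14, among them Jun at 286 TPM and Dusp1 at 94.7, and its list mean of 1.58 lay near the reference median of 1.60. Over 10 genes of heat shock and the unfolded protein response, the list mean was 1.44, 3.43, 2.30, 0.84 and 1.44 in cells 18, 38, 56, 57 and 84, against 3.36 to 6.15 in the reference. Ddit3, a gene induced by endoplasmic reticulum stress, was at 0 in all 5 cells, and the reference median was 63.8 TPM. Since most genes were missing from these cells, a low level of these genes cannot be told apart from a general lack of transcripts.

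Markers of most other cells of the tissue were at 0 or came as single genes. Neuroblast genes were the exception, with up to 3 of 7 detected in a cell. Their list mean was 0 to 1.99 in the 5 cells, highest in cell 57, and 0 to 2.25 in the reference. In all 5 cells every gene of the endothelial, fibroblast, ependymal, red blood cell and glutamatergic lists was listed at 0. Among 10 microglial genes Cx3cr1 was detected in cell 84 at 2.26 TPM and the other 9 were at 0 in all 5 cells. Vtn, a gene of pericytes, was at 840 TPM in cell 56 with the other pericyte and smooth muscle genes at 0 there. Of 8 genes of dopaminergic neurons, 3 of the 5 cells held 1 gene at 50 TPM or more. Th, the enzyme of dopamine synthesis, was at 553 TPM in cell 18 and at most 48.0 in the reference. Aldh1a1, an aldehyde dehydrogenase, was at 613 TPM in cell 38 and 802 in cell 84, above the highest reference value of 495. The dopamine transporter Slc6a3 and the monoamine transporter Slc18a2 were at 0 in all 5 cells. The mean over 12 housekeeping genes was 8.17 to 9.60 in the 5 cells and 6.06 to 9.60 in the reference, where the lowest value came from a library that was 85.2% short noncoding RNA. With short RNAs left out the reference ran from 8.68 to 9.60, and cells 56 (8.17) and 84 (8.66) lay below it. The summed level of these genes was 25873 to 47296 TPM in the 5 cells, above the 1683 to 17555 TPM of the reference.

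**Figure D5:**
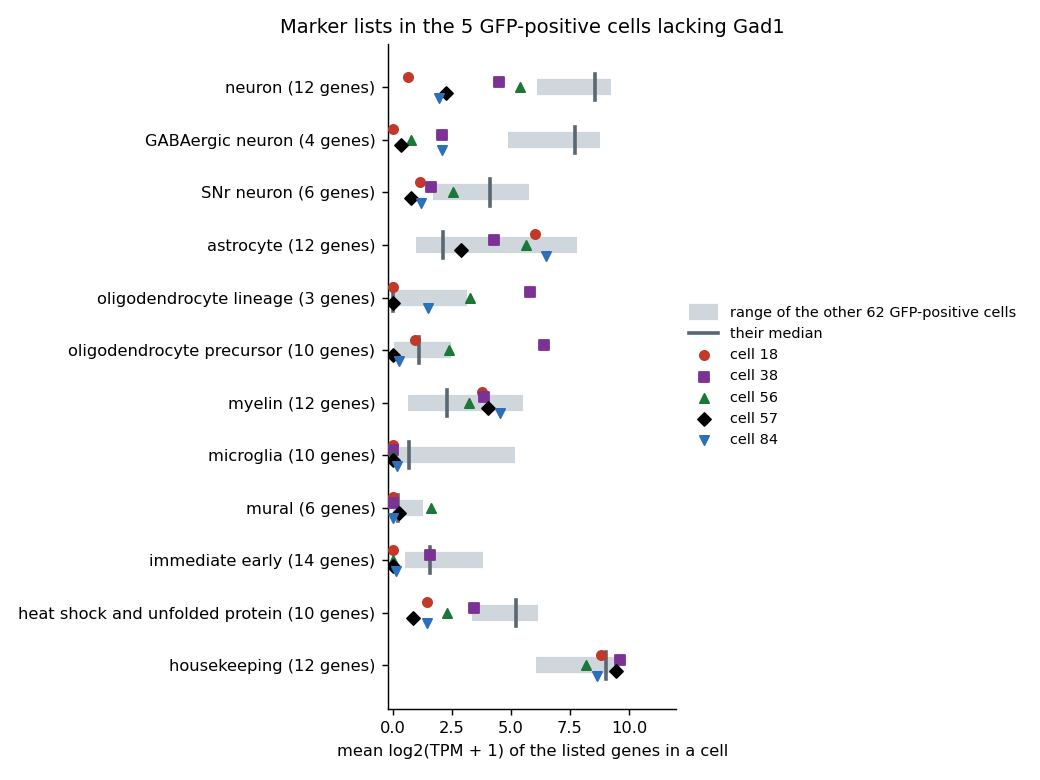
Mean log2(TPM + 1) of 12 gene lists (rows, number of genes in brackets) in each of the 5 Gad1-lacking cells, 1 symbol per cell. The grey bars are the range over the 62 reference cells and the dark ticks their median. All 5 cells lie below the bar for neuronal and GABAergic genes, and cell 38 lies above it for precursor and lineage genes.

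RNAs held in the nucleus were looked at after the values had been seen. Malat1 was at 0 in cell 18, 29.1 TPM in cell 56 and 30.7 in cell 84, below every reference cell, whose lowest value was 45.7 and median 1137. Cell 57 with 195 TPM and cell 38 with 1120 lay within the reference. Meg3, abundant in neuronal nuclei, was at 0 in cells 18, 56, 57 and 84, at 35.9 TPM in cell 38 and at 6.41 to 7700 in the reference. The oligodendrocyte-like GFP-negative cells 68 and 70 lacked Meg3 as well, with 0.102 and 0.0587 TPM, but had Malat1 at 2505 and 4871. By contrast Bc1, an RNA carried into dendrites, was at 970 to 3879 TPM in the 5 cells, around the reference median of 1316. Cell 18 thus had no Malat1 and no Meg3 with Bc1 at 3879 TPM.

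The leading genes of each cell, those furthest above the reference mean among genes at 50 TPM or more, were mostly different ones. In cell 18 they were Mis18a, Aldh1l1 (a folate enzyme used as an astrocyte marker, 1523 TPM), Adamts4 (a protease of oligodendrocytes, 1143 TPM), Tst and Zbtb25. In cell 38 they were Tac1 (the precursor of substance P, 772 TPM, absent from all 62 reference cells), Pdgfra, Rgcc, Cav1 and Pllp (a myelin membrane protein, 833 TPM). In cell 56 they were Rdh5, Setd6, Exoc3l4, Gramd3 and Tmem100. In cell 57 they were Etnppl (an astrocyte enzyme, 2638 TPM), Lect1, Swsap1, Ppapdc1a and Gng11. In cell 84 they were Lcat (a cholesterol-esterifying enzyme, 1370 TPM), Naprt1, Adhfe1, Cd9 (a membrane protein, 1937 TPM) and Phyhd1. Of the genes at 50 TPM or more in any of the 5, 2129 were so in 1 cell, 477 in 2, 187 in 3, 103 in 4 and 69 in all 5. Of those 69, 61 also had a reference median of 50 TPM or more, so most of what all 5 shared was common to nigral neurons as well.

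By these values cell 38 was oligodendrocyte precursor-like, with 3 precursor genes (Pdgfra, Neu4 and Gpr17) among its first 10 leading genes, though Gfap, Map2 and Tac1 were also present. The other 4 could not be given a cell type. Cell 84 had 9 of 12 astrocyte markers and a neuronal mean of 1.96, and resembled an astrocyte or part of one more than any other listed type, but no listed marker was among its first 10 genes. Cell 18 had 9 of 12 astrocyte markers beside Mobp, Car2 (carbonic anhydrase, 1704 TPM) and Bcas1 (1997 TPM), genes of oligodendrocytes, and resembled mostly a mixture of glial RNA. Its neuronal mean of 0.65 was the lowest of the 5, though Bc1, Th and Kif5a were also present. Cell 57 had Gfap, Gja1, Aldoc at 5850 TPM and Apoe, the lipid carrier of astrocytes, at 27132 TPM beside the highest Mbp of the 5, with 3 of 12 astrocyte markers detected. Cell 56 held neuronal, astrocyte and oligodendrocyte genes together, each in part. In genes detected and core genes, cells 18, 56, 57 and 84 resembled incomplete cells or debris more than whole cells of the collection. A fragment, a dying cell and a poorly captured cell cannot be told apart from these values.

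Rank correlations of the 5 cells with the reference and the GFP-negative cells were low over 6059 genes. These genes were chosen by their mean level in the reference or the GFP-negative cells, so genes high only in the 5 cells were left out. The correlations describe pairs of cells across genes, share the depth of each cell, and have no test. The median of Spearman's rho with the 62 reference cells was 0.130 in cell 18, 0.277 in cell 38, 0.147 in cell 56, 0.149 in cell 57 and 0.218 in cell 84, while pairs of reference cells had a median of 0.568 and low-gene cells one of 0.364 to 0.566. With the GFP-negative cells the medians of the 5 were 0.146 to 0.267. Among themselves the 5 cells had rho of 0.216 to 0.354. Cells 18, 56, 57 and 84 each had their highest rho with another Gad1-lacking cell, and cell 38 had its highest, 0.328, with reference cell 37.

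Against the reference, 108 of 8175 genes (1.32%) were higher in the Gad1-lacking cells by 4-fold or more in mean log2(TPM + 1), and 6225 (76.1%) were lower. To count, a gene had to pass 1 TPM in 50% or more of the higher set. These counts rest on cells chosen for 1 gene and carry no test, and Gad1 is among the lower genes by the rule. Of the 108 higher genes 49 were above the reference mean in each of the 5 cells. Levels did not overlap with those of the reference for 9 higher and 187 lower of the 8175 genes. The 10 with the largest difference that were higher in each cell were Gfap (7.76 on the log2 scale), Plekhb1 (6.94), Sepp1 (6.51), Sparc (5.93), Mbp (5.72), Cnp (5.25), Mobp (5.17), Dbi (4.81), Hist1h2af (4.76) and Mt1 (4.72). Among these, Sparc is a matrix protein of astrocytes, Sepp1 a selenium carrier, Dbi an acyl-CoA-binding protein rich in glia and Mt1 a metallothionein. Sparc was at 1677 to 3293 TPM in the 5 cells and 50.8 at the reference median, and Dbi was at 4342 to 8821 TPM against a highest reference value of 1806. Those furthest below the reference were Atp6v1f, Ndufa6, Rabac1, Vps28, Atp6v1c1, Psma2, Gad1, Tecr, Zwint and Resp18, of which Atp6v1f, Rabac1, Vps28, Atp6v1c1, Psma2 and Zwint were listed at 0 in all 5 cells. Atp6v1f and Atp6v1c1 encode subunits of the vesicular proton pump.

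Gene lists followed these counts unevenly. Of the 12 neuronal genes 11 were lower by 4-fold and 0 higher, and of the 6 heat shock genes that could be called all 6 were lower, beside the 76.1% of all genes. Of the 12 astrocyte genes 8 could be called, and 5 of the 8 were higher. Of the 12 myelin genes 4 could be called, and all 4 were higher, among them Mbp, Mobp and Cnp. The detection rule lets a gene that few reference cells held be called only if the Gad1-lacking cells held it. The astrocyte and myelin shares are therefore partly set by the rule and cannot be compared with the 1.32% of all genes. The median difference over all 12 myelin genes was -0.09, over all 12 astrocyte genes 2.37, over all 12 neuronal genes -5.71, and over all 8175 genes -3.09. The list medians hold every member, also genes few cells of either set held, while the 8175 genes all passed the detection rule. Over the genes that could be called, the median was 5.21 for myelin and 2.68 for astrocyte genes, again partly set by the rule.

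A few abundant RNAs moved with the Gad1-lacking cells. Ribosomal protein genes held 7.45 to 14.1% of TPM in them against 0.506 to 7.76% in the reference. Rn45s, the ribosomal RNA precursor, held 2.38 to 8.14% against 0.268 to 7.32% in the reference. The gene model Gm20594 held 2.62 to 9.23%, and the highest reference value was 2.10%. Lars2, a mitochondrial leucyl-tRNA synthetase gene, was at 3466 to 12061 TPM against a highest reference value of 4562. A few genes filled more of each library, since the 10 most abundant held 16.7 to 32.9% of TPM and 9.13% in the median reference cell. Their part in the differences above was not tested.

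The 5 low-gene cells with Gad1 kept a neuronal profile. Snap25 was at 218 TPM in cell 26, 812 in 63, 3444 in 83, 3565 in 90 and 5989 in 96. In cells 26 and 63 a short RNA filled most of the total. Their neuronal mean was 4.69 to 8.23, and 6.82 to 9.37 with short RNAs left out, within the 6.94 to 9.25 of the reference on that scale but for cell 96 at the lower end and cell 26 at the upper. Cells 26 and 63 resembled SNr neurons seen through a library dominated by 1 short RNA. Cells 90 and 96 resembled GABAergic neurons with fewer genes, beside some glial transcripts. Over 6 SNr neuron genes the mean was 5.11 in cell 63 and 2.28 to 2.78 in the others, lowest in cell 90. The reference ran from 1.70 to 5.78 with a median of 4.11. The short RNA lowers this mean in cells 26 and 63. With short RNAs left out, the 5 cells ran from 2.28 to 7.36, highest in cell 63, and the reference from 1.70 to 5.87. Pvalb, parvalbumin, which marks many SNr neurons, was at 38.0, 110, 202 and 194 TPM in cells 26, 63, 83 and 96 and at 0 in cell 90. Cell 83 was neuronal (mean 8.23) and also had Gfap at 598 TPM, above every reference cell, with Aqp4 at 154, Aldh1l1 at 182, Gja1 at 180 and Mbp at 9322, so that 6 of 12 astrocyte markers were detected beside Gad1 at 1449. Cell 90 held 6 of 10 precursor genes, with Lhfpl3 at 801 TPM, Vcan at 146 and Gpr17 at 135, and Pdgfra at 0. Its precursor mean of 3.35 lay above the highest reference value of 2.45. Cell 96 had Mog at 192 and Cldn11 at 179 TPM, myelin genes that the Gad1-lacking cells did not have. Malat1 with short RNAs left out was 1069 TPM in cell 26, 833 in cell 63, 239 in cell 83, 99.5 in cell 90 and 15.5 in cell 96, the last below every reference cell.

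Against the reference, 5 of 8071 genes (0.062%) were higher by 4-fold in the low-gene cells and 4034 (50%) were lower. The 5, named after their values were seen, were Olig1 (3.05 on the log2 scale), Tnk2 (2.32), Jam3 (2.19), Fam220a (2.14) and Bcas1 (2.13). Olig1 and Bcas1, genes of the oligodendrocyte lineage, were at 0 in cells 26 and 63 and at 146 to 244 TPM in cells 83, 90 and 96. None of the 5 was above the reference mean in all 5 cells. Of the 8071 genes, 0 of the higher and 2 of the lower, Sccpdh and Usp14, had levels that did not overlap with the reference. With short RNAs left out of the total, 42 genes were higher and 2263 lower.

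Set side by side, Gad1-lacking and low-gene cells differed in neuronal, astrocyte and GABAergic genes. The GABAergic mean, which holds Gad1, was 1.06 ± 0.98 (SD, n = 5 cells) in the first and 6.22 ± 1.86 in the second. The SD here is a spread over chosen cells, not over animals, and does not measure how sure a difference is. The neuronal mean was 2.94 ± 1.94 against 6.80 ± 1.35. The astrocyte mean was 5.07 ± 1.47 against 1.95 ± 1.41, a difference of 3.11 that was 2.37 without cells 26 and 63. The cells ran from 2.89 to 6.49 and from 0.58 to 4.18, which overlapped. The myelin mean was 3.88 ± 0.47 against 2.08 ± 1.54, a difference of 1.80 that was 0.85 without cells 26 and 63, and cell 96 with 4.14 lay above 4 of the 5 Gad1-lacking cells. The precursor mean, 2.00 ± 2.63 against 1.10 ± 1.30, rested on cell 38, and without it the difference was -0.20 in place of 0.90. The immediate early mean was 0.34 ± 0.70 against 0.69 ± 0.59, and the cells, at 0 to 1.58 and 0.29 to 1.74, overlapped. The heat shock and unfolded protein mean was 1.89 ± 1.01 against 3.70 ± 0.93. Its cells ran from 0.84 to 3.43 and from 2.56 (cell 26) to 4.90, which overlapped as well. With short RNAs left out they ran from 0.84 to 3.43 and from 3.99 to 5.24, which did not overlap. Over single genes 227 of 3744 (6.06%) were higher by 4-fold in the Gad1-lacking cells and 2034 (54.3%) lower. Without cells 26 and 63, the higher count was 140. Of the 3744 genes, 22 were higher and 240 lower with levels that did not overlap. With 5 cells on each side some genes can separate by chance, and how many was not tested. The non-overlapping genes with the largest differences upward were Twf1 (7.47 on the log2 scale), Dbi (7.33), Gfap (7.21), Sparc (7.01), Mbp (5.96), Hist1h2af, Rps24, Kif5a, Mt1 and Lars2. Twf1, an actin-binding protein, was at 519 to 1854 TPM in the first set and at most 107 in the second, and Kif5a, a kinesin that carries cargo along axons, was at 236 to 3451 TPM against at most 223. Downward they were Ndufa6, Gad1, Rabac1, Psma2, Hprt, Coa3, Mrpl30, Atp6v1f, Vapa and Atp6v1c1.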

How the data were processed

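The authors aligned read pairs of 25 bases with TopHat2 2.0.10 to GRCm38 (mm10), quantified genes with Cufflinks 2.2.1 and Cuffnorm, and kept cells with 50% aligned reads and at least 100000 aligned pairs. Their own analysis then used only the 62 cells with more than 5000 genes detected, which leaves out all 10 members. The deposited table holds FPKM for 22815 genes in 80 cells, with no counts. TPM were computed as FPKM divided by the sum of the cell, times 1000000, and expression was log2(TPM + 1). A gene was detected above 1 TPM. Depth was estimated from the FPKM spacing of 1083 genes with 1 transcript over 2500 bases. This step was tested on simulated data that held exact whole multiples, which the real values met only in part. No 2 columns were identical (0 pairs). The annotation GENCODE M21 gave identifiers and positions for 21550 symbols.

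Members, gene lists and named genes were chosen with earlier results of these data known. Named genes are list members, the first 5 leading and 5 missing genes of each Gad1-lacking cell and the first 10 genes each way of each comparison, leaving out unnamed gene models. Some genes that this rule selects are not reported here. Further genes (nuclear and dendritic RNAs, Apoe, Car2, Bcas1, Lars2, Gm20594, ribosomal genes, and 2010107E04Rik) were named after their values were seen. No test was made, since the labels name no animal. Computations used Python 3.11.15, numpy 2.4.6, pandas 2.3.3 and scipy 1.17.1. Alternatives were other pseudocounts, detection limits, Gad1 and gene limits and folds, FPKM in place of TPM, short noncoding RNA left out, and each cell left out.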

Additional observations from a re-analysis of the deposited data

Results flagged for a closer look

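In the 2 sets of 5 cells, the highest or lowest cell stood far from the others in 10 of 42 sets of values. The measure was its gap to the nearest cell over the whole range. The cutoff is passed in about 1 of 20 sets of independent, normally distributed values. These sets share cells and many hold mostly 0, so that rate does not apply. Whether 10 is more than chance gives was not tested. Among the Gad1-lacking cells, cell 38 stood apart with 4364 genes detected, against 1271 to 1950 in the other 4, and with an immediate early mean of 1.58 against 0 to 0.12. Cell 56 stood apart in the mural list, with a mean of 1.62 that came from Vtn. Cell 84 was the only one with a microglial gene, which gave a mean of 0.17.

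For the low-gene cells with Gad1, values count short RNAs unless stated, which lowers the list means of cells 26 and 63. Cell 63 stood apart in SNr neuron genes with a mean of 5.11 against 2.28 to 2.78. With short RNAs left out, the 5 cells ran from 2.28 to 7.36 (cell 63) and averaged 4.24. The highest reference value on that scale was 5.87. Cell 90 stood apart in precursor genes with 3.35 against 0.16 to 0.98. Cell 96 stood apart in immediate early genes with 1.74 against 0.29 to 0.49, and cell 83 in neuroblast genes with 0.92 against 0 to 0.10. With short RNAs left out, the immediate early means ran from 0.48 to 1.74 with a median of 0.92. The neuroblast means ran from 0 to 0.92, and their average was 0.34 in place of 0.22. Whether these cells still stood apart with short RNAs left out was not tested. Cell 63 had a glutamatergic mean of 0.036 and cell 26 an endothelial mean of 0.023, each with the other 4 cells at 0.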

How the results depend on the processing

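Of 161 recomputed values, 126 stayed within 1 SD over cells or, for counts, within 1.5-fold, and 2 changed sign. The Gad1-lacking cells were the same 5 under every alternative that left the Gad1 limit at 10. A Gad1 limit of 1 kept 3 of them. It took the neuronal difference to -1.95 and turned the immediate early difference to 0.015. With a limit of 100, which adds cells 10 and 26, the astrocyte difference was 1.55 and the myelin difference 0.47. The low-gene cells numbered 2 with detection above 0 TPM or a limit of 4000 genes, 3 with short RNAs left out, 12 with detection above 5 TPM and 14 with a limit of 6000 genes. Their median of 4018 genes was 5602 above 0 TPM and 3170 above 5 TPM.

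Genes higher in the Gad1-lacking cells than in the reference numbered 224 at 2-fold and 53 at 8-fold. In the low-gene cells, higher genes numbered 50 at 2-fold, 1 at 8-fold, 17 with a pseudocount of 0.1, 8 with no filter and 42 with short RNAs left out, and lower genes 6594 at 2-fold, 1651 at 8-fold and 2263 with short RNAs left out. Between the 2 sets, higher genes numbered 445 at 2-fold, 107 at 8-fold, 348 with a pseudocount of 0.1, 362 with no filter, 137 with short RNAs left out and 140 without cells 26 and 63, and lower genes 1276 at 8-fold.

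With each cell left out in turn, the neuronal difference ran from -4.47 to -3.29, the astrocyte difference from 2.76 to 3.67, the myelin difference from 1.36 to 2.32, the precursor difference from -0.20 to 1.47 and the immediate early difference from -0.66 to -0.09. Higher genes ran from 125 to 175 against the reference (175 without cell 56 and 163 without cell 57) and from 251 to 419 against the low-gene cells (374 without cell 18, 419 without 56 and 400 without 57). Lower genes ran from 6052 to 6582 and from 1943 to 2273. With 4 cells, 2 in place of 3 have to detect a gene, which raises the higher counts. The estimated depth of 127999 to 390732 fragments limits what a value of 0 means in these cells. No paired analysis was possible because the labels name no animal and no shared replicate number.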
